A study of Mus musculus with 22 samples.

Results

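T cell genes and natural killer (NK) cell genes were followed in the lungs of mice given multiwalled carbon nanotubes. The set held 39 genes of the 20018 genes that the array names, 26 of them T cell genes and 13 NK and cytotoxic genes. They were chosen by name as known genes of each lineage, but with earlier results of these data known. Counts over the set are therefore description, and no test was made over a list. A gene was represented by its brightest probe whose RefSeq accession maps to the gene. The expression criterion, a lung signal exceeding the negative control spots on 80% or more of the arrays in some group, was met by 37 of the 39 members and by 16436 of the 20018 named genes.

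All lungs came from female C57BL/6 mice whose experiments began at 8 weeks of age. Each mouse received a single intratracheal instillation, and the right lung was collected 24 h later. There were 5 control mice given the vehicle (saline holding bronchoalveolar lavage fluid), and the others received Mitsui7, a preparation of multiwalled nanotubes, at 18 µg (6 mice), 54 µg (5 mice) or 162 µg (6 mice). RNA of each lung, labelled with Cy5, was hybridised on a dual-colour Agilent array against a universal mouse reference RNA from 11 mouse cell lines, labelled with Cy3, with no dye swap. Values are log2 ratios of lung to reference, and a difference between groups on that scale is a log2 fold change. The reference is the same for all mice, so a ratio ranks mice for 1 gene and does not rank genes, and all 3 doses were set against the same 5 controls.

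T cells recognise peptides through an antigen receptor whose CD3 chains pass the signal to the kinases Lck and Zap70 and the adaptor Lat. NK cells are innate lymphocytes that read activating and inhibitory receptors and kill with perforin and granzymes, and their programme depends on the T-box factors Eomes and T-bet (Tbx21). Cytotoxic CD8 T cells use the same granules, and the lung holds both lineages at rest, so no cytotoxic gene of the set belongs to NK cells alone. The T cell list likewise holds genes shared with NK cells, such as Cd2, so the lists do not separate the lineages. A whole lung was measured, so fewer cells of a type and less RNA per cell cannot be told apart. The cell type in which Lck, Zap70 or any other member changed was not measured.

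Markers of both lineages were present. Among the T cell markers, Cd3d, Cd3e and Lck were well above background in Cy5 on all 22 arrays, and Cd3g on 21. Among the NK cell markers, Prf1 was well above background on all 22, Klrb1c on 18, Eomes on 17 and Ncr1 on 12. The lung structural markers Sftpc, Scgb1a1, Ager, Pecam1 and Cdh5 were well above background on every control and every 162 µg array. Ctla4, an inhibitory receptor of T cells, and Klrk1, the activating receptor NKG2D, did not meet the expression criterion and were not called or counted. Of the 22 arrays, controls had a Cy5 median over background between 1.48 and 1.96 and 162 µg arrays between 1.17 and 2.38, and the group medians were 1.91 (controls), 1.40 (18 µg), 1.44 (54 µg) and 1.65 (162 µg). The part of signal strength in the results was not tested. Control mouse 2 stood apart in 9 neutrophil markers, with a mean 1.92 above the mean of the controls on the log2 scale, against -0.80 to -0.25 in the other controls.

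A gene was called when its adjusted p in limma was at most 0.05, the change was at least 1.5-fold and the gene was expressed. At 162 µg, 5 of the 39 members were called lower than in controls and 0 were called higher, where 2.9% of all named genes were called lower and 2.74% higher. The 5 genes were Lck and Zap70 among the T cell genes and Gzma, Eomes and Tbx21 among the NK and cytotoxic genes. At 18 µg and at 54 µg, 0 members were called in either direction, beside 1.18% of named genes called lower and 0.52% called higher at 18 µg, and 0.115% lower and 0.205% higher at 54 µg. At an unadjusted p under 0.05, limma found 1 member lower and 3 higher at 18 µg, beside 10.8% of named genes lower and 7.49% higher. It found 10 members lower and 0 higher at 54 µg, beside 6.49% and 4.92% of named genes, and 14 lower and 0 higher at 162 µg, beside 12.6% and 11.1%. The count of 5 at 162 µg was 1 without 162 µg mouse 1, 2 without control mouse 3 or 162 µg mouse 2 or 5, and 3 without control mouse 1, 2 or 5, 18 µg mouse 2 or 3, or 54 µg mouse 2 or 4, each left out in turn, and 4 to 6 without each of the others. It was 1 without the arrays of slide 7, whose log ratios correlated least with the deposited table, and 8 without the arrays that had under 60% of probes above the negative controls. The shares of named genes given above belong to the main fit and not to these refits.

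**Figure D1:**
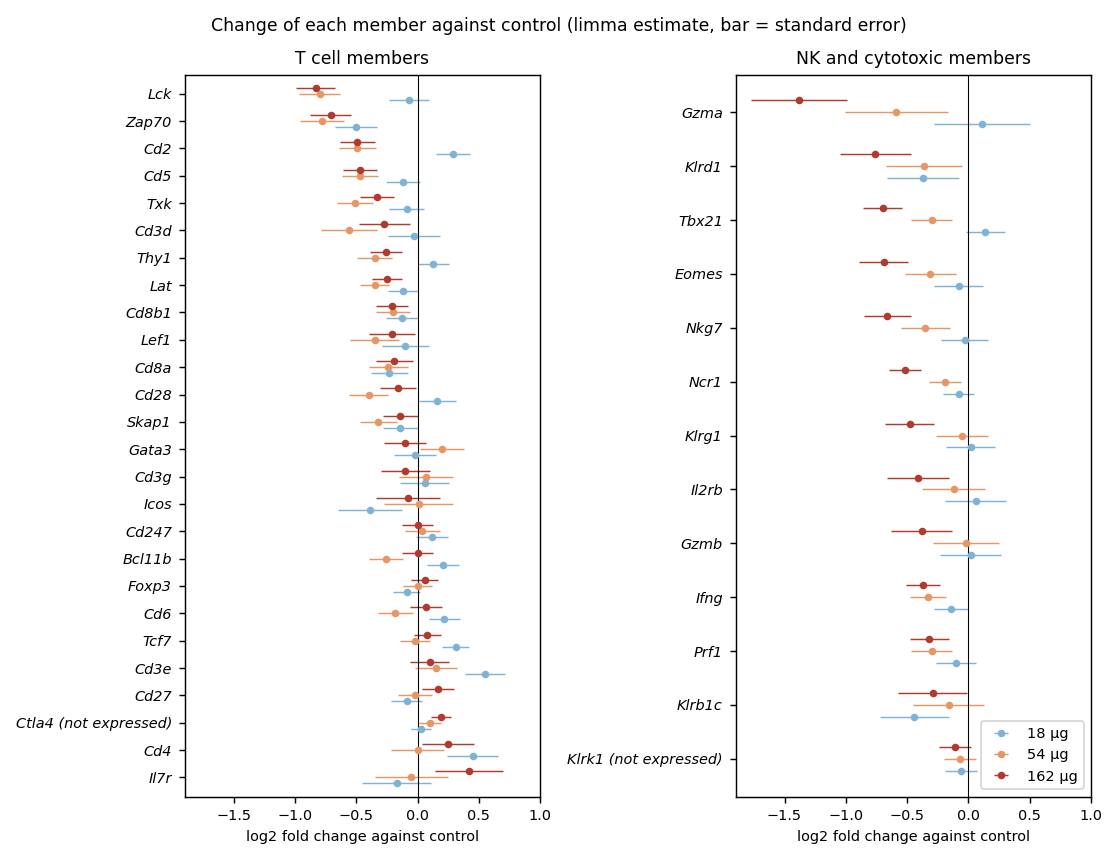
Log2 fold change against the 5 controls (x axis) of each of the 39 members at 18 µg, 54 µg and 162 µg, with T cell genes on the left and NK and cytotoxic genes on the right. Points are limma estimates, bars are 1 standard error, and genes are ordered by the change at 162 µg, from -0.83 (Lck) to 0.42 (Il7r) in T cell genes and from -1.38 (Gzma) to -0.11 (Klrk1) in NK and cytotoxic genes.

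Sequences near the transcription start are shown for the 3 members called lower at 162 µg both against controls and against 18 µg. Cd2, also called against 18 µg, was under 1.5-fold against controls and had no window, so it is not shown. RefSeq windows on GRCm38.p6, from 250 bases before to 50 after a start, were found for 28 of the 39 members, in 38 windows, some of which overlap. Capitals mark matches on either strand to AGGAAG (the core of ETS factors), TGTGGT (RUNX factors), GGTGTG (T-box factors) and CTTTGA (TCF and LEF factors), which share no bases here.
Lck, first start, chr4:129573592-129573891, minus strand: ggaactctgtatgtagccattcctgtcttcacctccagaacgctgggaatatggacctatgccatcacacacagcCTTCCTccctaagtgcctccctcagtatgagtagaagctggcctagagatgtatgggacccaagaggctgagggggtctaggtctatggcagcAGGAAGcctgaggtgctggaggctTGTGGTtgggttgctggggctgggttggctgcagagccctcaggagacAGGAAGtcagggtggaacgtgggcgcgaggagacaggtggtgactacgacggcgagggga
Lck, second start, chr4:129558323-129558622, minus strand: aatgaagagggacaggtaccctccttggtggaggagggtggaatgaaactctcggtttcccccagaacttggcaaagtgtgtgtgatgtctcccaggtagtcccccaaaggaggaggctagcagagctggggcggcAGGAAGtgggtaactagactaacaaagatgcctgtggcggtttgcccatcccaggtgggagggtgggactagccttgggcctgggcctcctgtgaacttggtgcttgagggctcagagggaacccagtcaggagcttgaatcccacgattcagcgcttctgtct
Tbx21, chr11:97115282-97115581, minus strand: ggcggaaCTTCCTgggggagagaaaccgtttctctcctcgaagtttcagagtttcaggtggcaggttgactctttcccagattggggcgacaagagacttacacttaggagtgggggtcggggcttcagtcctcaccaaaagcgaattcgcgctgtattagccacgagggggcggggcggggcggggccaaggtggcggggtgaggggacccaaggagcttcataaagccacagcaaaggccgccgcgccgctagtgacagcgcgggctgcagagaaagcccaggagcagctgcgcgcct
Gzma, chr13:113100932-113101231, minus strand: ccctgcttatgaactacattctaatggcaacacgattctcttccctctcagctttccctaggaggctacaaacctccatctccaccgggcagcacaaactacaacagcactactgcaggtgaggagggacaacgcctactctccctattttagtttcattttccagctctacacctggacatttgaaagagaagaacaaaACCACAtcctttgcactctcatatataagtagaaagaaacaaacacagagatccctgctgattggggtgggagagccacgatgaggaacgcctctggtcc
The first Lck window held 3 ETS matches and 1 RUNX match, and the second held 1 ETS match. Tbx21 held 1 ETS match and Gzma 1 RUNX match. Over all 32851 windows of the table, 35.4% held the ETS letters, 16.8% the RUNX letters, 19% the T-box letters and 16% the TCF and LEF letters. Of 27 T cell windows, 55.6% held the ETS letters, 18.5% the RUNX, 25.9% the T-box and 29.6% the TCF and LEF letters. Of 11 NK and cytotoxic windows, 36.4% held the ETS letters, 72.7% the RUNX, 9.09% the T-box and 9.09% the TCF and LEF letters. A match describes letters in these windows only, and binding was not measured.

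Lck, the kinase that starts signalling from the T cell receptor, was the member with the smallest adjusted p against controls. Its log2 ratio was 0.08, -0.33, -0.42, -0.32 and -0.41 in the 5 controls. At 18 µg it ran from -0.68 through a median of -0.36 to 0.16, and at 54 µg it was -0.69, -0.98, -1.12, -1.21 and -0.81. At 162 µg it ran from -1.39 through a median of -1.06 to -0.77. Every mouse at 54 µg and at 162 µg lay below every control, whereas the 18 µg mice overlapped the controls. Lck fell 1.77-fold at 162 µg, and it decreased by 0.83 on the log2 scale (standard error 0.16, adjusted p = 0.00468 in limma). At 54 µg the log2 fold change was nearly as large, -0.80 (standard error 0.17), with an adjusted p of 0.0667 in limma, and at 18 µg it was -0.07 (standard error 0.16). Within the 4 slides that held a control and a 162 µg mouse, the difference ran from -1.04 to -0.48, below 0 on 4 of 4. The call of Lck held with each of the 22 arrays left out in turn, and was lost with median centring (-1.07, adjusted p = 0.108 in limma) and without normalization (-1.08, adjusted p = 0.557 in limma), where the estimate was larger.

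Zap70, the kinase recruited to the CD3 chains once Lck has acted, had control values of 0.02, -0.56, 0.03, -0.45 and -0.24. It ran from -1.02 through a median of -0.73 to -0.31 at 18 µg, and was -1.05, -0.92, -0.47, -1.13 and -0.72 at 54 µg. At 162 µg it ran from -1.31 through a median of -0.85 to -0.39. The lowest control lay among the treated mice at each dose, so no dose was apart from the controls. Zap70 fell 1.64-fold at 162 µg, by 0.71 on the log2 scale (standard error 0.17, adjusted p = 0.0191 in limma), and the lower doses gave -0.50 (18 µg, standard error 0.17, adjusted p = 0.149) and -0.78 (54 µg, standard error 0.18, adjusted p = 0.107). A second, dimmer probe of Zap70 read -0.33 at 162 µg (adjusted p = 0.228 in limma), and the call was lost with the median over both probes (-0.49). It was also lost without control mouse 3 (-0.64), control mouse 5 (-0.71) or 162 µg mouse 1 (-0.70), 2 (-0.64) or 5 (-0.61), each in turn.

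The other members of receptor signalling were not called. Lat, the adaptor that Zap70 phosphorylates, had log2 fold changes of -0.12, -0.35 and -0.25 at 18, 54 and 162 µg, and Txk, a Tec family kinase, had -0.09, -0.51 and -0.33, none of them past the adjusted threshold. Skap1, an adaptor linking the receptor to integrins, was lower than in all controls at 54 µg, with values for 4 of 5 mice and 4 of 5 controls, with an estimate of -0.32 (standard error 0.15, adjusted p = 0.599 in limma). Lck and Skap1 were the 2 members below all controls at 54 µg, where 1.48% of named genes had that pattern, and 0 members had it at 18 µg (1.63% of named genes).

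**Figure D2:**
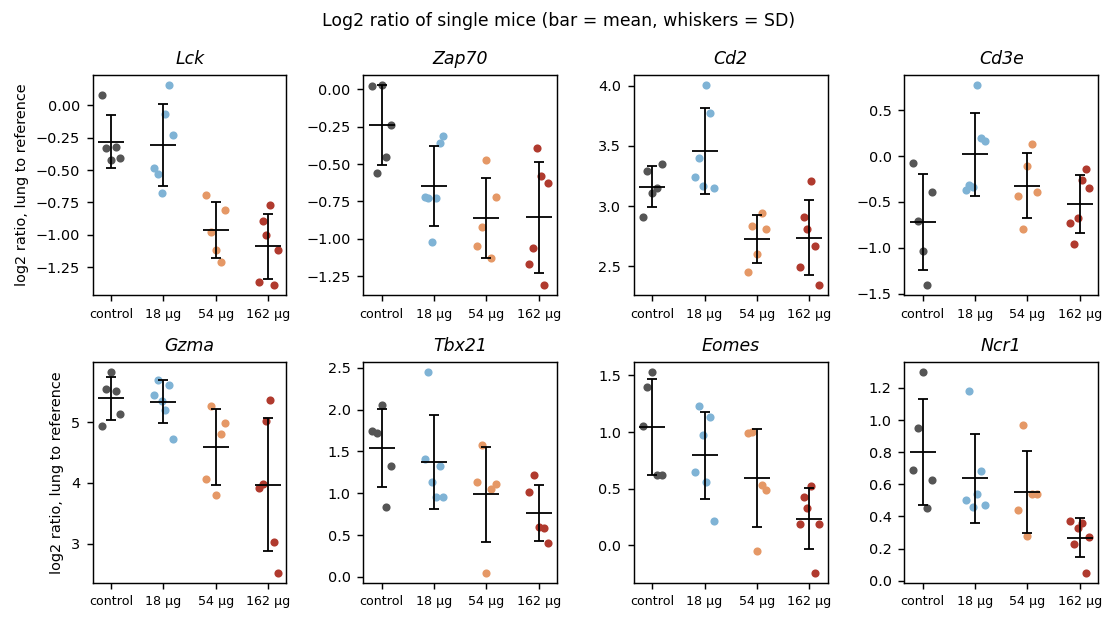
Log2 ratio of lung to reference (y axis) in each mouse for Lck, Zap70, Cd2 and Cd3e (T cell genes) and Gzma, Tbx21, Eomes and Ncr1 (NK and cytotoxic genes), by dose. Each point is a mouse, the bar is the group mean and whiskers are 1 SD; all 162 µg points of Lck, Eomes and Ncr1 lie below the lowest control.

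None of the CD3 chains was called at any dose. Cd3e had control values of -0.07, -0.71, -1.03, -1.41 and -0.39. It ran from -0.37 through a median of -0.08 to 0.78 at 18 µg, was -0.44, -0.80, -0.11, 0.13 and -0.39 at 54 µg, and ran from -0.96 through a median of -0.51 to -0.14 at 162 µg. All groups overlapped, and the controls spread over the widest range. Its log2 fold change at 18 µg was 0.55 (standard error 0.16, adjusted p = 0.0913 in limma), followed by 0.15 at 54 µg and 0.10 at 162 µg (standard error 0.16, adjusted p = 0.852). The estimate for Cd3d at 162 µg was -0.27 (standard error 0.21), for Cd3g -0.10 (standard error 0.20, with 1 array of this group missing) and for Cd247, the zeta chain, 0.00 (standard error 0.13). The probe of Cd247 was dim, well above background in 3 of 5 controls and 1 of 6 mice at 162 µg.

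The coreceptors did not pass the test at any dose. Cd4, of helper T cells, had control values of 0.22, 0.01, 0.18, -0.12 and 0.16, and at 18 µg ran from 0.09 through a median of 0.54 to 1.00. It was 0.14, 0.23, 0.29 and -0.06 in the 4 mice with a value at 54 µg, and -0.03, 0.89, -0.23, 0.18 and 0.97 in the 5 with a value at 162 µg. Most 18 µg mice were above the controls, and 2 of the 162 µg mice were. Its log2 fold changes were 0.45 (standard error 0.21, adjusted p = 0.317 in limma), 0.00 and 0.25 (standard error 0.21, adjusted p = 0.628) at the 3 rising doses. A second, dimmer probe of Cd4 read -0.01, -0.02 and -0.02. Cd8a, of cytotoxic T cells, had control values of 1.5, 1.09, 1.11, 0.77 and 0.73, and ran from 0.45 through a median of 0.59 to 1.04 at 18 µg. It was 0.99, 0.94, 0.41, 0.49 and 0.68 at 54 µg, and ran from 0.27 through a median of 0.74 to 1.35 at 162 µg. All dose groups overlapped the controls, with log2 fold changes of -0.23, -0.24 and -0.19 (standard error 0.15 at 162 µg). Its partner Cd8b1 read -0.13, -0.20 and -0.21.

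Among the surface receptors that tune T cell responses, Cd2 and Cd5 had negative estimates at the 2 higher doses. Cd2, an adhesion receptor shared by T and NK cells, had control values of 2.91, 3.29, 3.11, 3.15 and 3.35. It ran from 3.15 through a median of 3.32 to 4.01 at 18 µg, was 2.45, 2.83, 2.60, 2.94 and 2.81 at 54 µg, and ran from 2.34 through a median of 2.74 to 3.21 at 162 µg. Every 18 µg mouse but the lowest lay above the median control, and most mice at the higher doses lay below the lowest control. Against controls, Cd2 differed by -0.49 at 162 µg (standard error 0.14, adjusted p = 0.0445 in limma), 1.41-fold lower and so under the 1.5-fold minimum, and -0.49 at 54 µg (adjusted p = 0.257). Cd5, a negative regulator of receptor signalling, read -0.47 at 162 µg (standard error 0.14, adjusted p = 0.05), 1.38-fold lower, and -0.47 at 54 µg (adjusted p = 0.26). The costimulatory receptors Cd28, Icos and Cd27 read -0.16, -0.08 and 0.17 at 162 µg, Cd6 0.07, Thy1 -0.26 and the interleukin 7 receptor Il7r 0.42 (standard error 0.28), with none past the adjusted threshold.

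T cell transcription factors did not pass the test at any dose. At 162 µg the log2 fold changes were 0.08 for Tcf7, -0.21 for Lef1, 0.00 for Bcl11b, -0.10 for Gata3 (the factor of type 2 helper T cells) and 0.06 for Foxp3 (the factor of regulatory T cells), with standard errors from 0.11 to 0.19. Tcf7 had the largest of these values at 18 µg, 0.31 (standard error 0.11, adjusted p = 0.174 in limma), while its second, dimmer probe read 0.07 at that dose. The probe of Foxp3 was dim, well above background in 5 of 5 controls and 3 of 6 mice at 162 µg.

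Gzma, the serine protease granzyme A of cytotoxic granules, had the largest change of all members at 162 µg. Its log2 ratio was 4.94, 5.54, 5.83, 5.52 and 5.14 in controls, and ran from 4.73 through a median of 5.40 to 5.70 at 18 µg. It was 4.07, 5.27, 3.8, 4.81 and 4.98 at 54 µg and 3.92, 3.99, 5.02, 5.37, 3.02 and 2.52 at 162 µg. Of the 162 µg mice, 4 lay below every control, while mice 3 and 4 lay within the control range. Gzma fell 2.59-fold at 162 µg, and it decreased by 1.38 on the log2 scale (standard error 0.39, adjusted p = 0.0446 in limma). The estimates were -0.59 at 54 µg (standard error 0.42) and 0.11 at 18 µg (standard error 0.39). Within slides the difference at 162 µg ran from -2.12 to -0.50, below 0 on 4 of 4. The call stood close to the threshold: it was lost in 16 of 22 fits that each left out an array, all except those without 18 µg mouse 1 or 4, 54 µg mouse 3 or 5, or 162 µg mouse 3 or 4, with log2 fold changes from -1.66 to -1.15.

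The granzyme B and perforin genes, of the same granules, did not pass the test. Gzmb had control values of 1.75, 1.83, 1.25, 0.89 and 0.91, and ran from 0.76 through a median of 1.10 to 1.98 at 18 µg. It was 0.99, 1.78, 1.06, 1.18 and 1.21 at 54 µg, and ran from 0.13 through a median of 0.79 to 1.96 at 162 µg. All groups overlapped, and 162 µg mouse 4 was the highest of its group for Gzmb as for Gzma. The log2 fold change of Gzmb at 162 µg was -0.38 (standard error 0.25, adjusted p = 0.489 in limma), that of perforin (Prf1) -0.32 (standard error 0.16, adjusted p = 0.302), and that of interferon gamma (Ifng) -0.37 (standard error 0.14, adjusted p = 0.159). Nkg7, a granule membrane protein, was below all controls at 162 µg in the 5 mice with a value, the highest of them equal to the lowest control at the 2 decimals printed, at -0.66 (standard error 0.19, adjusted p = 0.054).

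Both T-box factors fell at 162 µg. Tbx21, which encodes T-bet, had control values of 1.74, 1.72, 2.06, 0.84 and 1.33, and ran from 0.95 through a median of 1.23 to 2.45 at 18 µg. It was 1.14, 1.58, 0.05, 1.05 and 1.11 at 54 µg, and 1.01, 1.22, 0.60, 0.59 and 0.40 in the 5 mice with a value at 162 µg, mouse 4 having none. Of these 5 mice, 3 lay below every control. The reference signal of Tbx21 in Cy3 was weak, well above background on 9 of 22 arrays. Tbx21 fell 1.62-fold, and it decreased by 0.70 on the log2 scale (standard error 0.16, adjusted p = 0.0155 in limma), beside -0.30 at 54 µg (standard error 0.17) and 0.14 at 18 µg (standard error 0.16). Within slides the difference at 162 µg ran from -0.84 to -0.25, below 0 on 4 of 4. The call was lost without control mouse 3 (-0.66) or 162 µg mouse 1 (-0.62), and with no slide term (-0.78, adjusted p = 0.151).

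Eomes had control values of 1.05, 1.40, 1.53, 0.62 and 0.62, and ran from 0.22 through a median of 0.81 to 1.23 at 18 µg. It was 0.99, 1.00, -0.05, 0.53 and 0.49 at 54 µg and 0.19, 0.43, 0.33, 0.52, -0.24 and 0.19 at 162 µg. Every 162 µg mouse lay below every control, while the lower doses overlapped them. Eomes fell 1.61-fold, and it decreased by 0.69 on the log2 scale (standard error 0.20, adjusted p = 0.0484 in limma), beside -0.31 at 54 µg and -0.08 at 18 µg. Its signal was weak, well above background in 5 of 5 controls and 3 of 6 mice at 162 µg, and its second probe was not expressed. The call was lost in 15 of 22 fits that each left out an array, all except those without control mouse 4, 18 µg mouse 5 or 6, 54 µg mouse 1 or 3, or 162 µg mouse 4 or 6, with log2 fold changes from -0.80 to -0.58.

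NK cell receptors had negative estimates at 162 µg, and none was called. Ncr1, the activating receptor NKp46 that marks NK cells, had control values of 0.69, 0.95, 1.30, 0.45 and 0.63, and ran from 0.46 through a median of 0.52 to 1.18 at 18 µg. It was 0.44, 0.97, 0.28, 0.54 and 0.54 at 54 µg and ran from 0.05 through a median of 0.30 to 0.37 at 162 µg. Every 162 µg mouse lay below every control. Its log2 fold change there was -0.52 (standard error 0.13, adjusted p = 0.0192 in limma), 1.44-fold lower and so under the minimum, and its probe was well above background in 4 of 5 controls and 1 of 6 mice at 162 µg. Ncr1, Nkg7, Eomes and Lck were the 4 members below all controls at 162 µg, where 3.69% of named genes had that pattern.

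Klrb1c, the receptor NK1.1, had control values of 1.59, 2.48, 1.84, 1.39 and 1.17, and ran from 0.39 through a median of 1.18 to 1.51 at 18 µg. It was 1.16, 2.05, 0.66, 1.30 and 1.31 at 54 µg, and ran from 0.33 through a median of 1.38 to 2.16 at 162 µg. The dose groups overlapped the controls throughout, at -0.29 (standard error 0.28, adjusted p = 0.68 in limma) at 162 µg. Klrd1, the CD94 chain, read -0.76 at 162 µg (standard error 0.29, adjusted p = 0.159), Klrg1, an inhibitory receptor of mature cells, -0.48 (standard error 0.20, adjusted p = 0.193), and Il2rb, the receptor chain shared by interleukins 2 and 15, -0.41 (standard error 0.25, adjusted p = 0.437).

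Set side by side, the NK and cytotoxic genes had a lower median than the T cell genes at 162 µg. The lists also differ in brightness, as most NK and cytotoxic probes were dimmer than most T cell probes. Mean log2 intensity ran from 5.81 (Ifng) to 9.62 (Gzma) over expressed NK and cytotoxic genes. Over expressed T cell genes it ran from 5.68 (Cd247) to 12.29 (Thy1). The part of brightness in the difference between the lists was not tested. The median log2 fold change over the 25 expressed T cell genes took the values -0.07, -0.24 and -0.14 at the 3 rising doses, and over the 12 expressed NK and cytotoxic genes -0.06, -0.30 and -0.50. Over all expressed named genes it was -0.02, -0.01 and -0.01. Negative estimates were found for 15, 19 and 17 of 25 T cell genes and for 7, 12 and 12 of 12 NK and cytotoxic genes, against 53.6%, 52.6% and 51.2% of all expressed named genes. At 162 µg all 12 NK and cytotoxic estimates stayed negative under each of the 6 other scalings, whereas between 9 and 12 were negative at 54 µg and between 4 and 12 at 18 µg. Over all alternatives the median at 18 µg changed sign for both lists, from -0.39 to 0.10 for T cell genes and from -0.28 to 0.13 for NK and cytotoxic genes. Among T cell genes at 162 µg, estimates spread from -0.83 to 0.42, with 2 called lower and 2 more passing the adjusted threshold under 1.5-fold. Without the minimum fold, 8 of the 39 members passed lower, where 4.74% of named genes did. For NK and cytotoxic genes they spread from -1.38 to -0.29, with 3 called lower and 1 more passing the adjusted threshold.

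Within single mice, the mean over each list was taken as a deviation from the mean of the controls. For T cell genes it lay between -0.17 and 0.26 among controls, between -0.25 and 0.23 after 18 µg, between -0.27 and -0.10 after 54 µg, and between -0.30 and -0.05 after 162 µg. For NK and cytotoxic genes the matching ranges were between -0.35 and 0.34, between -0.60 and 0.32, between -0.85 and 0.03, and between -1.17 and -0.03. In every group, controls included, the mice thus spread more widely over the NK and cytotoxic genes than over the T cell genes. In the 162 µg group the NK and cytotoxic mean was -0.59, -0.35, -0.55, -0.03, -1.07 and -1.17 in mice 1 to 6. Cy5 median over background in the same mice was 2.375, 1.945, 1.788, 1.514, 1.348 and 1.169, and its part was not tested. The NK and cytotoxic mean lay below the T cell mean in 5 of 6 of these mice. It did so in 5 of 6 mice at 18 µg, in 4 of 5 at 54 µg and in 3 of 5 controls. Both lists are centred on the controls, so the count in controls does not show an order of the lists. Members of a list share the cells they come from and are not replicates, and no test was made over a list.

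**Figure D3:**
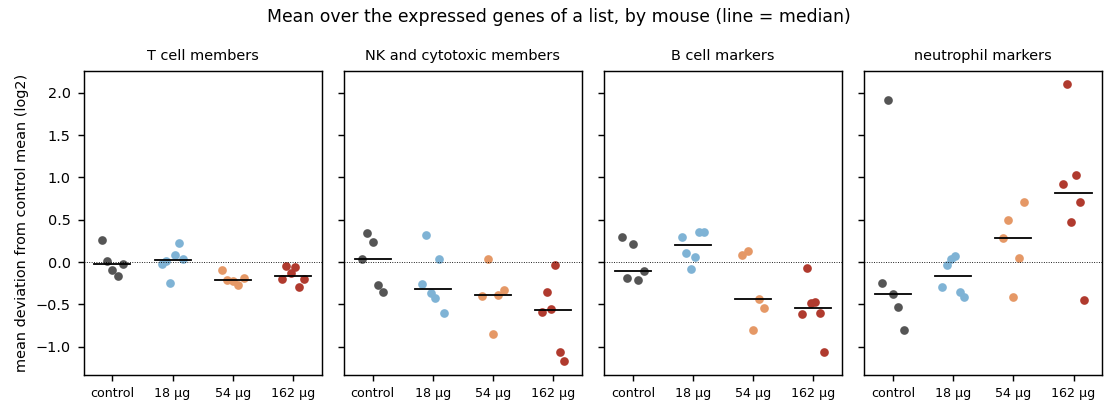
Mean deviation from the control mean on the log2 scale (y axis) over the expressed genes of 4 lists, by dose (x axis), with a point per mouse and a line at the group median. Medians at 162 µg are -0.16 for T cell genes, -0.57 for NK and cytotoxic genes, -0.54 for B cell markers and 0.81 for neutrophil markers, and control mouse 2 is the high control point of the neutrophil panel.

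Some markers of other leukocytes were also called. Among 10 B cell markers, Ms4a1 (-0.89, adjusted p = 0.0125) and Cr2 (-1.02, adjusted p = 0.00491) were called lower at 162 µg in limma, and 0 were called higher. The list mean ran from -0.21 to 0.30 in controls and from -1.06 to -0.07 at 162 µg. Of 9 neutrophil markers, Il1r2 was called higher (2.36, adjusted p = 0.00746 in limma), and the list mean ran from -0.80 to 1.92 in controls and from -0.45 to 2.10 at 162 µg. All 10 B cell markers and all 9 neutrophil markers met the expression criterion. Of 8 measured monocyte and macrophage markers, Marco was called higher at 162 µg (1.51, adjusted p = 0.00457 in limma) and Chil3 at 18 µg (1.73, adjusted p = 0.0454 in limma), the latter lost in 15 of 22 fits that each left out an array. At 162 µg, 4 of these 8 markers had negative estimates, and 1 passed the adjusted threshold lower without being called. The mean over these 8 markers ran from -0.31 to 0.62 in controls and from -0.57 to 0.41 at 162 µg, so the groups overlapped. Over 5 pan-leukocyte genes the mean ran from -0.35 to 0.50 in controls and from -0.54 to 0.00 at 162 µg, and over 10 lung structural markers from -0.33 to 0.27 and from -0.39 to 0.44. The part of these shifts in the changes of the T and NK cell genes was not tested.

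Between 162 µg and 18 µg, 4 members were called lower at 162 µg and 0 higher, beside 1.36% of named genes called lower and 2.74% higher. They were Gzma (-1.49, standard error 0.36, adjusted p = 0.0267 in limma), Tbx21 (-0.84, standard error 0.15, adjusted p = 0.00451), Cd2 (-0.78, standard error 0.13, adjusted p = 0.00259) and Lck (-0.76, standard error 0.15, adjusted p = 0.00634). Ncr1 passed the adjusted threshold at -0.44, 1.36-fold lower (adjusted p = 0.0395 in limma), which made 5 members lower without the minimum fold, where 2.5% of named genes were. Without 1 array in turn, the calls of Cd2, Lck and Tbx21 held in all 22 fits, and that of Gzma was lost without 18 µg mouse 2 (-1.45) or 5 (-1.37) or 162 µg mouse 1 (-1.43), 2 (-1.41), 5 (-1.28) or 6 (-1.23). Over 15 alternative settings, the call of Tbx21 was lost in 5, among them no slide term (-0.61, adjusted p = 0.342 in limma), slide as a random block (-0.69, adjusted p = 0.1) and a replicate block in place of the slide (-0.67, adjusted p = 0.0721). The call of Gzma was also lost in 5 of the 15, among them the deposited table, the fit of only the 2 groups and the fit without slide 7, with differences from -1.74 to -1.07 over all 15. With median centring or no normalization, 0 of the 4 were called.

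Between 162 µg and 54 µg, 0 members and 0% of named genes were called in limma. At an unadjusted p under 0.05, 3 members were lower and 0 higher, beside 4.76% of named genes lower and 5.45% higher. Between 54 µg and 18 µg, 0 members were called, beside 0.00999% of named genes lower and 0.015% higher. The unadjusted threshold was passed by 13 members lower and 0 higher, beside 5.57% of named genes lower and 6.79% higher.

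**Figure D4:**
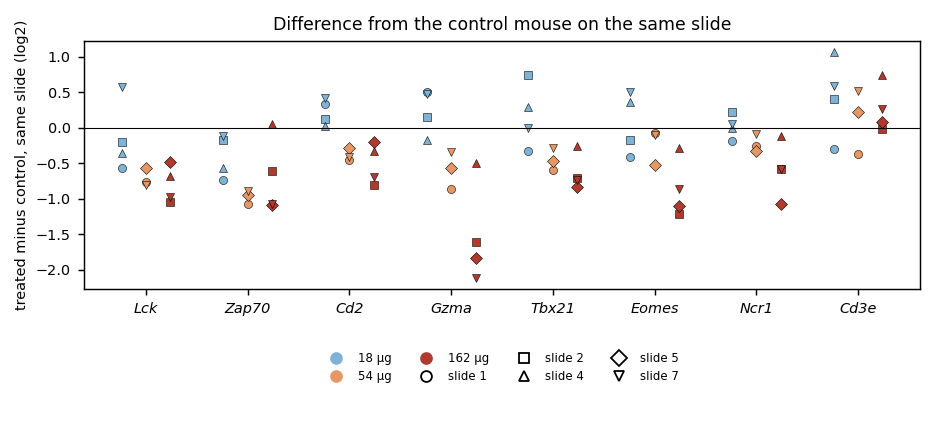
Difference of log2 ratio between a treated mouse and the control mouse on the same slide (y axis) for 8 members, coloured by dose, with a symbol for each of the 5 slides that held a control. At 162 µg the points of Lck, Cd2, Gzma, Tbx21, Eomes and Ncr1 lie below 0 on 4 of 4 slides, those of Zap70 on 3 of 4 and those of Cd3e on 1 of 4.

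Further genes of the same lineages were counted by the same rule. Of 26 expressed other T cell genes, 0 were called lower at 162 µg in limma. Il2ra, the alpha chain of the interleukin 2 receptor, was called higher (0.98, standard error 0.24, adjusted p = 0.0191 in limma). Il2ra ran from 0.57 to 1.33 in controls and from 0.98 to 2.67 at 162 µg, so the groups overlapped. Of 22 fits that each left out an array, the call of Il2ra was lost in 3 (without control mouse 3 or 5 or 162 µg mouse 2). The median over these 26 genes was -0.14 at 162 µg.

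Of 17 expressed other NK and cytotoxic genes, 3 were called lower and 0 higher at 162 µg in limma. Klre1, an NK cell lectin-like receptor, ran from 1.20 to 2.02 in controls and from -0.14 to 0.72 at 162 µg, with no overlap, and fell by 1.22 on the log2 scale (standard error 0.22, adjusted p = 0.0039). Its probe was dim, well above background in Cy5 in 5 of 5 controls and 2 of 6 mice at 162 µg and in Cy3 on 1 of 22 arrays. S1pr5, a sphingosine phosphate receptor used in NK cell egress from marrow and lymph nodes, ran from 1.04 to 2.10 in controls and from 0.26 to 1.34 at 162 µg, and fell by 0.69 (standard error 0.19, adjusted p = 0.0338). Ccl5, a chemokine of cytotoxic lymphocytes, ran from -0.11 to 0.56 in controls and from -1.42 to 0.36 at 162 µg, and fell by 0.95 (standard error 0.23, adjusted p = 0.0219). The call of Klre1 held with each array left out, that of S1pr5 was lost in 8 of 22 such fits and that of Ccl5 in 6. The median over these 17 genes was -0.15 at 162 µg, closer to that of all genes than the median of the 12 members was. At 18 µg and 54 µg, 0 of either list were called in limma, and at an unadjusted p under 0.05 at most 2 of a list were found in either direction.

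Of 19 expressed ligands and cytokines that act on T and NK cells, 2 were called higher at 162 µg and 0 lower. Ccl17, a chemokine ligand of Ccr4 on helper T cells, was called at each dose, with log2 fold changes of 1.75 (adjusted p = 0.0172 in limma), 1.78 (adjusted p = 0.0367) and 1.46 (adjusted p = 0.0105) at 18, 54 and 162 µg. It ran from 1.93 to 3.02 in controls and from 3.4 to 4.31 at 162 µg, without overlap. Ccl19, a ligand of Ccr7 on naive T cells, was called at 162 µg only, at 0.90 (standard error 0.13, adjusted p = 0.000929 in limma), beside 0.04 at 18 µg and 0.26 at 54 µg. Proliferation genes, of which Ccna2 (0.94), Cdk1 (0.84) and Rrm2 (1.21) were called higher at 18 µg with adjusted p of 0.0371, 0.0456 and 0.0317 in limma, had 0 calls at 162 µg. With each of the 22 arrays left out in turn, the call of Ccl19 held, but it was lost in 4 of 15 alternative settings, which were median centring, no normalization, no slide term and a replicate block in place of the slide, with values from 0.61 to 0.98 over the 15. With single arrays left out, that of Ccl17 was lost in 3 fits at 18 µg, 14 at 54 µg and 1 at 162 µg, and those of Ccna2, Cdk1 and Rrm2 in 11, 15 and 7.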

How the data were processed

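Right lung RNA of 22 mice was measured on dual-colour arrays (lung in Cy5, universal mouse reference in Cy3). The authors deposited spot intensities, the median pixel signals of both channels and of local background, before any normalization. Per the file headers, the scanner software was Feature Extraction 10.7.3.1. They also deposited a table of log2 ratios whose normalization is not given in the sources used here, which served as an alternative.

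Outlier spots were left out. Log2 ratios were computed from median signals without background subtraction, normalized within arrays by loess (span 0.3) and reduced to the median over replicate spots of 55681 probes. RefSeq accessions named 26413 probes, of 20018 genes, and the brightest probe stood for a gene. Dose and slide (7 slides) were fixed effects in limma 3.58.1 (R 4.3.3, data.table version 1.17.8), with at most 12 residual degrees of freedom for a member, which replaced the permutation F test of the study's methods, and p was adjusted by Benjamini and Hochberg over all probes. Calls required an adjusted p of at most 0.05, a 1.5-fold change, and Cy5 above the 5% trimmed mean plus 3 trimmed SD of 308 negative control spots on 80% of arrays in a group. When the fit was tested on simulated data for 162 µg against control, it recovered 84% of 200 probes given a log2 change of 1, with 5 false calls among 51672 probes. The simulated noise was independent between probes and arrays, without slide effects or missing values. These rates therefore need not hold for the real arrays, where mice on a slide were correlated.

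The members and lists were chosen with earlier results of these data known. Values per mouse are given for members called in any comparison and for Cd3e, Cd4, Cd8a, Ncr1, Klrb1c and Gzmb, and genes of other lists are named where called against control, apart from some that are not reported here. The lists were other T cell genes, other NK and cytotoxic genes, ligands and cytokines, proliferation genes, and markers of B cells, neutrophils, monocytes and macrophages, eosinophils, mast cells with basophils and type 2 innate lymphoid cells, all leukocytes and lung structure. Of 5 eosinophil and 6 mast cell, basophil and innate lymphoid markers, 0 were called at 162 µg. The extracts came from separate mice. Of 39 members, 12 had several probes. The number of arrays limits the precision. Alternatives covered background correction, normalization, slide term, probe choice, filters, thresholds and left-out arrays.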

Additional observations from a re-analysis of the deposited data

Results flagged for a closer look

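Among 48 groups of 4 to 6 mice checked for a value far from the rest, 4 had one, where chance gives about 1 in 20. Lck in control mouse 1 was 0.08 on the log2 ratio scale, against -0.32 in the nearest control. Mouse 2 of the 18 µg group was highest for Tbx21, at 2.45 with the nearest mouse at 1.41, and for Ncr1, at 1.18 with the nearest at 0.68. Gzmb in 54 µg mouse 2 was 1.78, with the nearest mouse at 1.21.

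For 4 members the change against the shared controls differed between 162 µg and 18 µg in limma, by -0.78 for Cd2, -0.76 for Lck, -1.49 for Gzma and -0.84 for Tbx21. The change of Cd2 at 18 µg was 0.29 and at 162 µg -0.49, so the estimates had opposite signs.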

How the results depend on the processing

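The direction of every called member change held under all alternatives run. The count of 5 members called at 162 µg against control was 1 with median centring, 0 without normalization, 2 in the deposited log2 table, 3 with the median over the probes of a gene, 8 with no minimum fold, and, as alternatives chosen after seeing the data, 1 without slide 7 and 8 without the arrays with under 60% of probes above the negative controls. Leaving out each array gave 1 to 6. The share of all named genes called is given for the main fit only. Whether the counts under alternatives moved with calling over the whole array was therefore not tested. The 4 calls against 18 µg became 0 with median centring and 0 without normalization, and 3 to 5 with an array left out. Against control, 54 µg had 1 call with slide as a random block, 2 with only the 2 groups compared and 1 with the adjusted p threshold at 0.1, and 0 to 1 with an array left out (1 without 18 µg mouse 1 or 5, 54 µg mouse 5 or 162 µg mouse 3). Between 54 µg and 18 µg there was 1 call with normexp correction, 1 with quantile normalization, 1 with a replicate block and 1 with the adjusted p threshold at 0.1, and 0 to 1 with an array left out (1 without 18 µg mouse 1 or 162 µg mouse 6). Without normalization the T cell median was -0.39, -0.06 and -0.38 at 18, 54 and 162 µg. The median of all expressed genes then lay at -0.42, 0.13 and -0.21, and with median centring at -0.26, -0.03 and -0.19. At 18 µg against control and at 162 µg against 54 µg, 0 members were called under every alternative. Of 15 alternatives other than single arrays left out, the call at 162 µg against control was lost in 2 for Lck, 6 for Zap70, 4 for Gzma, 8 for Eomes and 7 for Tbx21. The cause of the lost calls was not tested.

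Deviations of same-numbered mice correlated from -0.169 to 0.625 over 31 pairs (median 0.171), with a median of 0.272 in the 11 pairs that also shared a slide and 0.104 in the other 20. Same-slide pairs had a median of 0.261 and different-slide pairs of -0.0466 whatever their number. Not every pair was above 0.1 and the labels tie the numbers to nothing else, so the numbers were not treated as pairing the mice. With the replicate block in place of slide, 5 members were called at 162 µg against control and 3 against 18 µg. Dim probes limit Eomes, Ncr1, Cd247 and Klre1, which were well above background on part of the arrays. The same holds for other members, among them Cd27, Foxp3, Cd8a, Bcl11b, Gzmb, Klrg1 and Ifng. The reference channel was also dim for some members. In Cy3, Tbx21 was well above background on 9 of 22 arrays, Eomes on 8 and Ncr1 on 1. For these dim probes an estimate of little change is not evidence of no change.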
